A study of Caenorhabditis remanei with 48 samples.

Results

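Heat-selected and ancestral larvae of Caenorhabditis remanei were compared after a larval incubation at 30 °C. The comparison is between the 12 of 48 libraries whose labels give a parental temperature of 20 °C, a larval temperature of 30 °C and either the ancestor (strain PX443, 6 libraries) or the heat-selected population derived from it (6 libraries). Every library of both groups came from first-stage (L1) larvae. Embryos were freed by bleaching and spent 20 h in buffer without food. A replicate pools about 100000 animals, passed through a 20 micron filter. Polyadenylated RNA was counted per gene model. The other libraries used beside them are the same populations as larvae at 20 °C (6 and 6), the same populations at 30 °C from parents kept at 30 °C (2 and 2), and control-selected larvae at 30 °C (6). Each selection regime is 1 population, and the batches of the labels are nested in the populations: A and B in the ancestor, E and F in the heat-selected population. Population, selection and batch therefore cannot be told apart by any test below.

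C. remanei is an outcrossing relative of C. elegans with separate females and males, so its populations hold much standing variation on which selection can act. Larvae that hatch without food arrest in the first stage, alive but not growing. Heat above the culture temperature calls up the heat shock response in nematodes, in which chaperone genes are switched on by the transcription factor HSF-1. The gene models here carry identifiers and, for most, a locus tag of another C. remanei assembly (PX506), but no gene names, so no gene below could be assigned to that response or to any other function. Defining markers of the L1 stage could not be checked for the same reason.

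Counts in genes ran from 5144716 to 8466404 per ancestor library and from 3132367 to 5757222 per heat-selected library. Reads outside genes made up 8.03 to 18.2% of ancestor libraries. They made up 23.7 to 27.0% of heat-selected replicates 1 to 4 and 14.8 to 15.5% of replicates 5 and 6. Libraries with consecutive numbers lay close together. The mean chi-square per gene between consecutive replicates (1-2, 3-4, 5-6) was 3.32 to 13.8, and between all other replicates of a group 19.9 to 213. No replicates agreed within sampling noise, so each was kept as a library, but 6 libraries act much like 3 pairs. The first principal component (41.3% of the variance) set replicates 1-2 of both populations, at −35.1 to −87.4, apart from replicates 3 to 6, at 12.6 to 52.4. The populations overlapped on this component and on the second (17.6%). Ancestor replicates 5-6 are labelled batch A, yet lay closer to replicates 3-4 (batch B; chi-square 19.9 to 39.3) than to replicates 1-2 (batch A; 98.2 to 145). The labels do not say whether replicates were separate cultures. The p-values of the main fit therefore measure only the spread between libraries, pooled over all groups of the series.

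**Figure D1:**
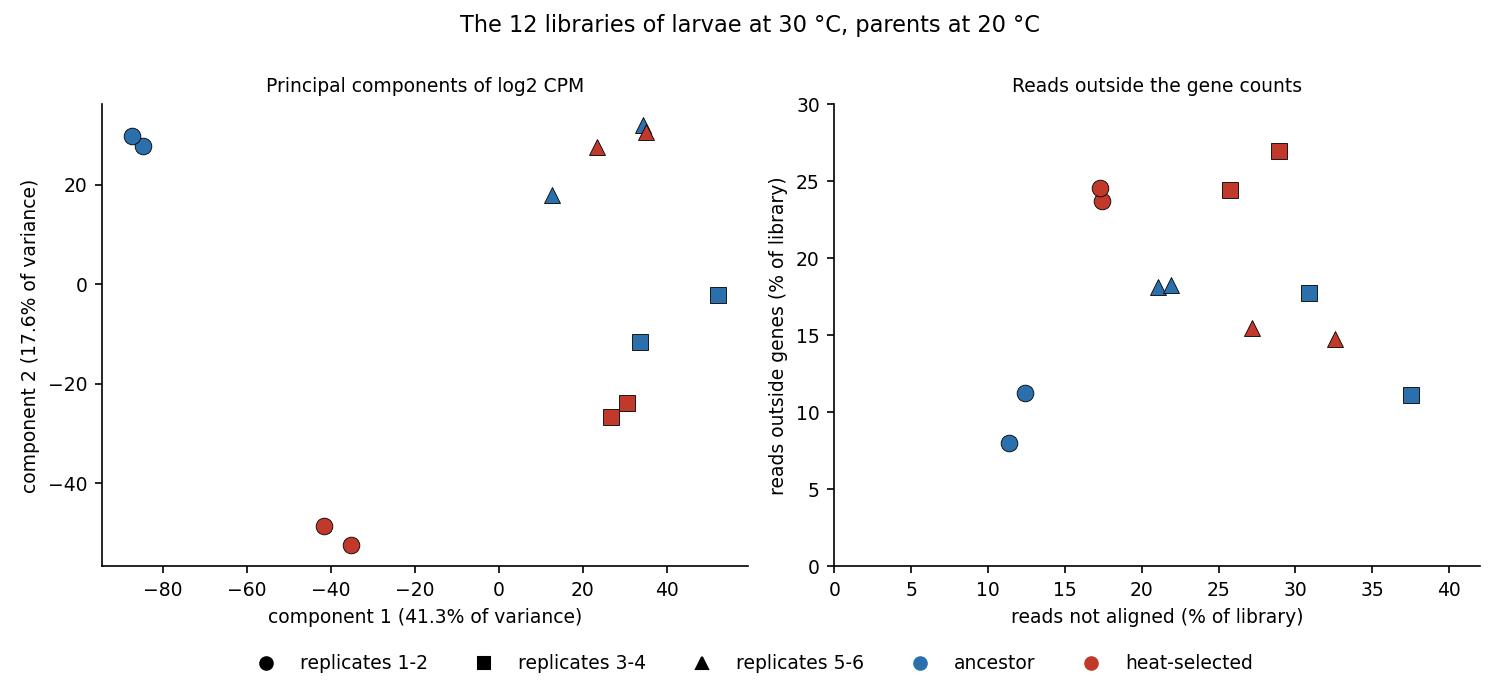
Left, principal components 1 and 2 of the 12 libraries, from log2 CPM (counts scaled to library size); right, the percent of reads outside genes against the percent not aligned. Colour gives the population and marker shape the replicate pair: replicates 1-2 (circles) sit to the left of component 1 in both populations, and heat-selected replicates 1 to 4 lie above 20% of reads outside genes.

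In the left panel of the plot of the 12 libraries the markers fall by replicate pair before they fall by colour. In the right panel no ancestor library reaches the share of reads outside genes of heat-selected replicates 1 to 4.

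Levels are given as CPM, counts scaled with TMM-adjusted library sizes (edgeR's cpm). Of 13460 tested genes 152 differed between the populations at 30 °C, with 77 higher and 75 lower in heat-selected larvae (edgeR's quasi-likelihood test, Benjamini-Hochberg adjusted p under 0.05). This is 1.13% of the genes tested, 0.572% higher and 0.557% lower. The median size of the fitted difference was 1.39 on the log2 scale among the called genes, against 0.28 over all tested genes. In 105 of them it was at least 1, as in 7.56% of all tested genes. The called genes covered a wide range of levels: 55 of the higher and 50 of the lower genes averaged at least 10 CPM in 1 of the groups, and 14 and 13 at least 100 CPM. When counts were scaled to total counts alone, 130 genes were called, 40 higher and 90 lower (74 of them among the 152), and the median of all genes moved from −0.07 to −0.23. The even split between directions therefore depends on the scaling.

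The count depended on what was taken as a replicate and on which libraries set the spread and the filter. The fit took its estimate of spread from all 48 libraries; with only the 12 libraries compared, edgeR called 10 genes, 9 of them among the 152. With the counts of consecutive replicates summed, which leaves 3 values per group, edgeR called 1 gene, CRE_PX356_452 (733 genes at an unadjusted p under 0.05). With the consecutive pair as a random block limma-voom called 7 genes, and with the batch as a random block 1 gene, CRE25992. Same-numbered libraries of the populations deviated together, and with the replicate number as a block 34 genes were called, 21 higher and 13 lower, of which 26 were among the 152. That block still counts both libraries of a pair as separate replicates. The block fit and the fit of the 12 libraries alone filtered on those libraries and tested 10438 genes. Part of the 152, such as CRE10368 and CRE26230, did not pass that filter and was not tested there. With pairs summed and blocked by number 1 gene was called, CRE25992. Ancestor batch A (replicates 1, 2, 5 and 6) against heat-selected batch E (replicates 1 and 2) gave 14 genes, all higher in heat-selected larvae. Batch B (replicates 3 and 4) against batch F (replicates 3 to 6) gave 378, 46 higher and 332 lower. No batch held both populations, and these fits differ in replicate numbers and pairs, so their counts cannot be read as an effect of batch. Replicates 3 to 6 of both populations alone gave 15 genes, 13 of them among the 152. Without heat-selected replicates 1 to 4, the libraries with the most reads outside genes, 84 genes were called and 14 of them were among the 152. Leaving out 1 library at a time gave 53 to 225 calls. The count was lowest without heat-selected replicate 2 (53) or replicate 1 (58), and fell to 82 without replicate 3 and 88 without replicate 4. Most of the 152 calls are therefore differences between these libraries that a test over replicate pairs does not pass.

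The gene that passed with pairs summed was CRE_PX356_452, a model on scaffold 141 without a CRE number. Its level was 5.56, 4.38, 4.82, 2.58, 2.96 and 2.92 CPM in heat-selected replicates 1 to 6, and 0.308, 0.391, 0.493, 0.226, 0 and 0.455 CPM in the ancestor. Every heat-selected library lay above every ancestor library, although the gene is low: it drew 78 counts over the 6 heat-selected and 13 over the 6 ancestor libraries. The fitted difference was 3.46 ± 0.42 (SE, log2; adjusted p = 3.3e-06 by edgeR), and it was called with pairs summed as well (adjusted p = 0.00506). Its mean level fell short of the naming rule, so it was singled out after its values were seen.

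CRE25992, on linkage group 4, was the largest rise among the genes the rule names. Heat-selected libraries held 23.5 and 42.8 CPM in replicates 1-2, 109 and 119 in replicates 3-4 and 73.7 and 69.6 in replicates 5-6. Ancestor libraries held 2.87 and 3.23, 17.9 and 15.1, and 5.20 and 6.82 CPM. Both populations were lowest in replicates 1-2 and highest in replicates 3-4, and within each pair number the heat-selected libraries stood well above the ancestor. The difference was 3.11 ± 0.44 (SE; adjusted p = 7.4e-05 by edgeR). It was called without any 1 library and without any 1 pair of libraries, at 2.62 to 4.05, and with pairs summed and blocked by number (adjusted p = 0.0101), but not with pairs summed alone (3.09 ± 0.69, adjusted p = 0.707).

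CRE16623, on linkage group 1, rose as well but unevenly over pairs. Its heat-selected libraries gave 35.2 and 45.3, 43.8 and 36.8, and 9.33 and 10.2 CPM, and the ancestor 3.64 to 8.05 CPM with a median of 4.83. The last pair lay just above the ancestor range while the others were far above it, and the fitted difference was 2.50 ± 0.37 (SE; adjusted p = 0.000132 by edgeR). Without heat-selected replicates 1 to 4 it was 0.86 and not called (adjusted p = 0.402). Of the 27 genes named by the rule 4 were called without those libraries. CRE06457, on scaffold 238, was more even: 15.8 to 28.8 CPM with a median of 20.8 in heat-selected larvae and 1.85 to 8.35 with a median of 7.03 in the ancestor. The populations did not overlap, ancestor replicates 1-2 were the lowest libraries, and the difference was 1.90 ± 0.34 (SE; adjusted p = 0.00166 by edgeR; 0.0544 with the replicate number as a block).

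In a segment of scaffold 375 with 18 tested genes, the 2 called models rose together. CRE09800 held 16.9 to 24.7 CPM (median 22.0) in heat-selected and 2.16 to 7.50 CPM (median 6.02) in ancestor larvae. CRE_PX356_6175, in the same segment, held 4.32 to 11.3 CPM (median 6.95) against 0.196 to 2.27 CPM (median 1.92). In neither gene did any library of one population reach the range of the other. The differences were 2.05 ± 0.32 and 2.32 ± 0.39 (SE; adjusted p = 0.000244 and 0.000713 by edgeR). Both were named after their values were seen.

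The rule names 13 higher genes in all. It takes only genes whose replicate pairs do not overlap, so the 10 among them in which no single library overlapped (0.669% of all tested genes) describe the choice and are no result. The others were CRE14226 (log2 difference 2.44), CRE12908 (2.42), CRE28810 (2.04), CRE30855 (2.00), CRE29896 (1.98), CRE13568 (1.86), CRE05046 (1.82), CRE05501 (1.42), CRE31377 (1.39) and CRE17828 (1.31), with adjusted p-values of 0.000914 to 0.0351 by edgeR. With the replicate number as a block, CRE30855 and CRE05046 were called (adjusted p = 0.0194 in each) and the other 8 were not (0.0548 to 0.117). CRE30855 stood at 51.0 to 83.2 CPM (median 59.96) in heat-selected and 7.46 to 27.7 CPM (median 11.9) in ancestor larvae, where replicates 1-2 held the top values. CRE17828, on linkage group 9, stood at 18.2 to 40.02 CPM (median 24.6) and 7.82 to 14.2 CPM (median 11.0), again without overlap. CRE28810, CRE29896 and CRE05501 were the genes in which single libraries did overlap, although the pairs did not. CRE28810 was not called without replicate 1 or 2 of either population, CRE05501 without these or ancestor replicate 3 or heat-selected replicate 4, and CRE31377 without ancestor replicate 1 or 2 or heat-selected replicate 1. CRE12908 was called in 6 and CRE29896 in 5 of the 12 fits without 1 library.

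**Figure D2:**
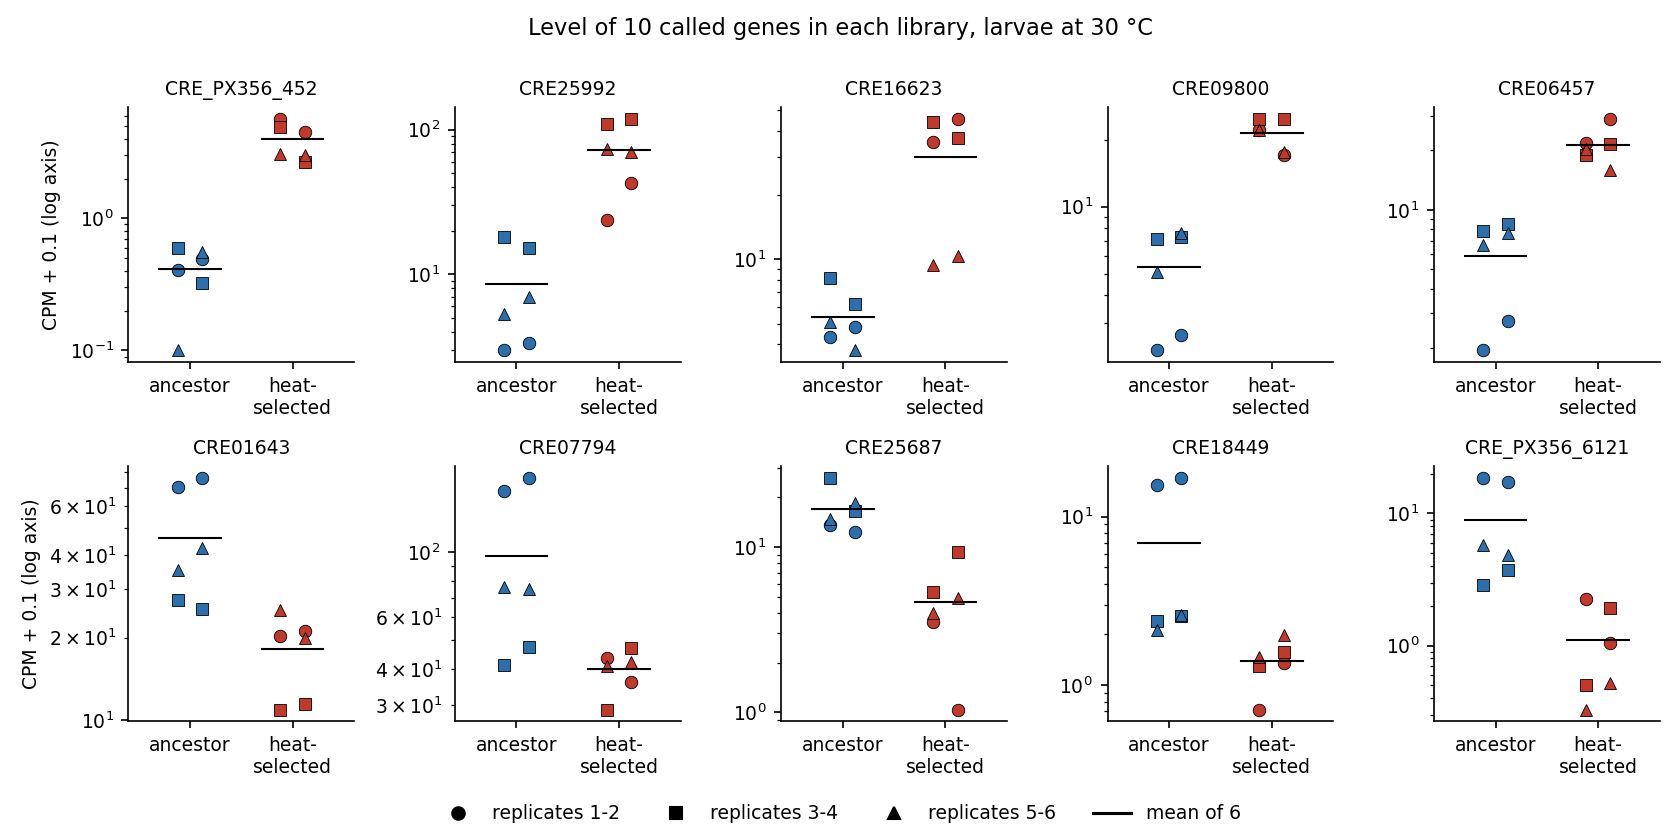
Level of 10 called genes in each of the 12 libraries, as CPM plus 0.1 on a log axis, with marker shape giving the replicate pair and a bar at the mean of the 6 libraries. The 5 genes of the upper row are higher in every heat-selected library than in any ancestor library; in CRE07794, in the lower row, heat-selected replicate 4 (47.1 CPM) lies above ancestor replicate 3 (41.1 CPM).

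The plot of 10 genes by library sets the higher genes above the lower ones. In the upper row the populations are apart in every panel. In the lower row much of the height of the ancestor mean comes from the circles, replicates 1-2, in CRE01643, CRE07794, CRE18449 and CRE_PX356_6121. No rule picked these 10 genes, and the upper row holds only genes without overlap. The contrast between the rows therefore describes the choice.

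Among the lower genes CRE01643, on linkage group 2, had the smallest adjusted p of those named. Ancestor libraries held 70.7 and 76.0, 27.3 and 25.3, and 35.1 and 42.1 CPM, and heat-selected libraries 20.1 and 20.95, 10.9 and 11.4, and 25.0 and 19.8 CPM. The lowest ancestor library (25.3 CPM) was only just above the highest heat-selected one (25.0 CPM), but in each pair number the heat-selected libraries were the lower ones. The difference was −1.35 ± 0.21 (SE; adjusted p = 0.000244 by edgeR), and it was called without any 1 library or pair. Without heat-selected replicates 1 to 4 it was not called (−1.06, adjusted p = 0.0812), whereas CRE25992 was (3.06, adjusted p = 0.00113). CRE25687, on linkage group 6, held 12.3 to 26.1 CPM (median 15.6) in the ancestor and 0.938 to 9.20 CPM (median 4.33) in heat-selected larvae, a difference of −1.90 ± 0.46 without overlap (SE; adjusted p = 0.0297 by edgeR). It was not called without ancestor replicate 3 or heat-selected replicate 1, 2 or 3 (adjusted p = 0.0509 to 0.0915).

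CRE02401 and CRE02347 lie in the same segment of linkage group 6, 2 places apart in the other assembly's gene order. CRE02401 held 62.4 to 354 CPM (median 119) in the ancestor, where replicate 3 was highest, and 24.7 to 69.9 CPM (median 40.5) in heat-selected larvae. CRE02347 held 1.56 to 12.2 CPM (median 3.85) against 0 to 1.84 CPM (median 0.880). Single libraries overlapped in both genes. Both were called lower, at −1.90 ± 0.39 and −2.36 ± 0.58 (SE; adjusted p = 0.00826 and 0.0318 by edgeR). CRE02347 was not called without ancestor replicate 3 or heat-selected replicate 1, 2 or 3 (adjusted p = 0.068 to 0.0929).

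CRE_PX356_6121 and CRE_PX356_6120 share a segment of scaffold 352 with 8 tested genes, and neither has a CRE number. Both were low in larvae at 20 °C, at no more than 1.31 and 0.741 CPM in either population. At 30 °C CRE_PX356_6121 held 18.5, 17.3, 2.79, 3.61, 5.65 and 4.78 CPM in ancestor replicates 1 to 6 and 0.228 to 2.16 CPM (median 0.677) in heat-selected larvae. CRE_PX356_6120, named after its values were seen, held 3.17 to 12.1 CPM (median 5.16) and 0.402 to 2.21 CPM (median 0.967). Neither gene overlapped between the populations, and ancestor replicates 1-2 were the highest libraries in both. The fitted differences were −3.21 ± 0.66 and −2.50 ± 0.57 (SE; adjusted p = 0.00826 and 0.0251 by edgeR). Without ancestor replicates 1-2 CRE_PX356_6121 was not called (−2.10, adjusted p = 0.133).

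The rule names 14 lower genes, again only ones whose pairs do not overlap, and no single library overlapped in 5 of them (0.669% of all tested genes). The others were CRE04112 (log2 difference −1.07), CRE18483 (−1.08), CRE04006 (−1.18), CRE07794 (−1.28), CRE28602 (−1.49), CRE01707 (−1.50), CRE20763 (−1.82), CRE18449 (−2.42) and CRE_PX356_2650 (−3.38), with adjusted p-values of 0.00313 to 0.0401 by edgeR. With the replicate number as a block, none of these 9 was called: 7 had adjusted p-values of 0.0544 to 0.244, and CRE18449 and CRE_PX356_2650 did not pass the filter on low counts there. CRE07794, on linkage group 10, was among the more abundant, at 162 and 179, 41.1 and 47.4, and 76.2 and 74.6 CPM in the ancestor and 28.9 to 47.1 CPM (median 41.5) in heat-selected larvae. Its pairs did not overlap, but its fitted difference of −1.28 shrank to −0.57 without ancestor replicates 1-2. CRE_PX356_2650 stood at 12.7 and 10.5 CPM in ancestor replicates 1-2 and at 0.657 to 1.13 CPM in replicates 3 to 6, against 0 to 0.804 CPM in heat-selected larvae. Without ancestor replicates 1-2 its difference was −0.90, so most of it came from that pair. It was not called without ancestor replicate 1 or 2 or without heat-selected replicate 1, 2, 3, 4 or 5 (adjusted p = 0.0505 to 0.101). CRE18449 was not called without ancestor replicate 1 or 2 or heat-selected replicate 1 (adjusted p = 0.0527 to 0.063), and CRE20763 without those or heat-selected replicate 2 or 3 (0.0502 to 0.0907). Without both ancestor replicates 1-2 the difference was −0.80 in CRE18449 and −0.48 in CRE20763 (adjusted p = 0.577 and 0.661). CRE28602 was not called without ancestor replicate 1 or 2 or heat-selected replicate 2, 3 or 4 (0.0541 to 0.0679), CRE18483 without ancestor replicate 4 or heat-selected replicate 1 (0.0555 and 0.0581), and CRE04006 was called in 3 of the 12 fits without 1 library.

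Abundant genes were among those called in both directions. CRE03921, the called gene with the highest group mean, averaged 638 CPM in heat-selected and 446 CPM in ancestor larvae (log2 difference 0.52 ± 0.14, SE; adjusted p = 0.047 by edgeR). CRE12164 held 485 to 700 CPM (median 550) in heat-selected and 248 to 333 CPM (median 290) in ancestor larvae, with no overlap (0.95 ± 0.23; adjusted p = 0.03 by edgeR). Among lower genes CRE09194 held 78.9 to 225 CPM (median 118.5) in the ancestor and 14.7 to 47.3 CPM (median 29.5) in heat-selected larvae, again apart (−2.04 ± 0.41; adjusted p = 0.00561 by edgeR). These genes lie outside the naming rule and were picked for their levels.

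The batches of the labels lie within populations, so each called gene was also read pair by pair. In 92 of the 152 genes (60.5%) all 3 heat-selected pairs lay beyond all 3 ancestor pairs in the fitted direction, as they did, in either direction, in 4.92% of all tested genes. The share was 53 of 77 among higher genes (68.8%; 2.51% of all tested genes) and 39 of 75 among lower genes (52.0%; 2.41%). The call and the pair values come from the same libraries, so these counts describe the called genes and test nothing. All 6 heat-selected libraries lay beyond all 6 ancestor libraries in 53 genes, 36 higher and 17 lower, against 0.669% of all tested genes. Set against the pair of the same number, 122 genes had the fitted direction in all 3 pairs (25.9% of all tested genes had 1 direction in all 3), 26 in 2 pairs and 4 in 1 pair.

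The pairs did not carry the differences evenly. Among higher genes the median log2 difference was 1.46 in replicates 1-2, 1.12 in replicates 3-4 and 0.77 in replicates 5-6. Among lower genes it was −1.26, −1.27 and −0.54. Over all tested genes these medians were −0.05, −0.04 and 0.01. The pair 5-6 thus showed the smallest differences in both directions. The fitted direction was kept in 145 genes in replicates 1-2, 147 in replicates 3-4 and 130 in replicates 5-6. Heat-selected replicates 5-6 are also the ones with fewer reads outside genes, and the part of that share in the result was not tested.

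**Figure D3:**
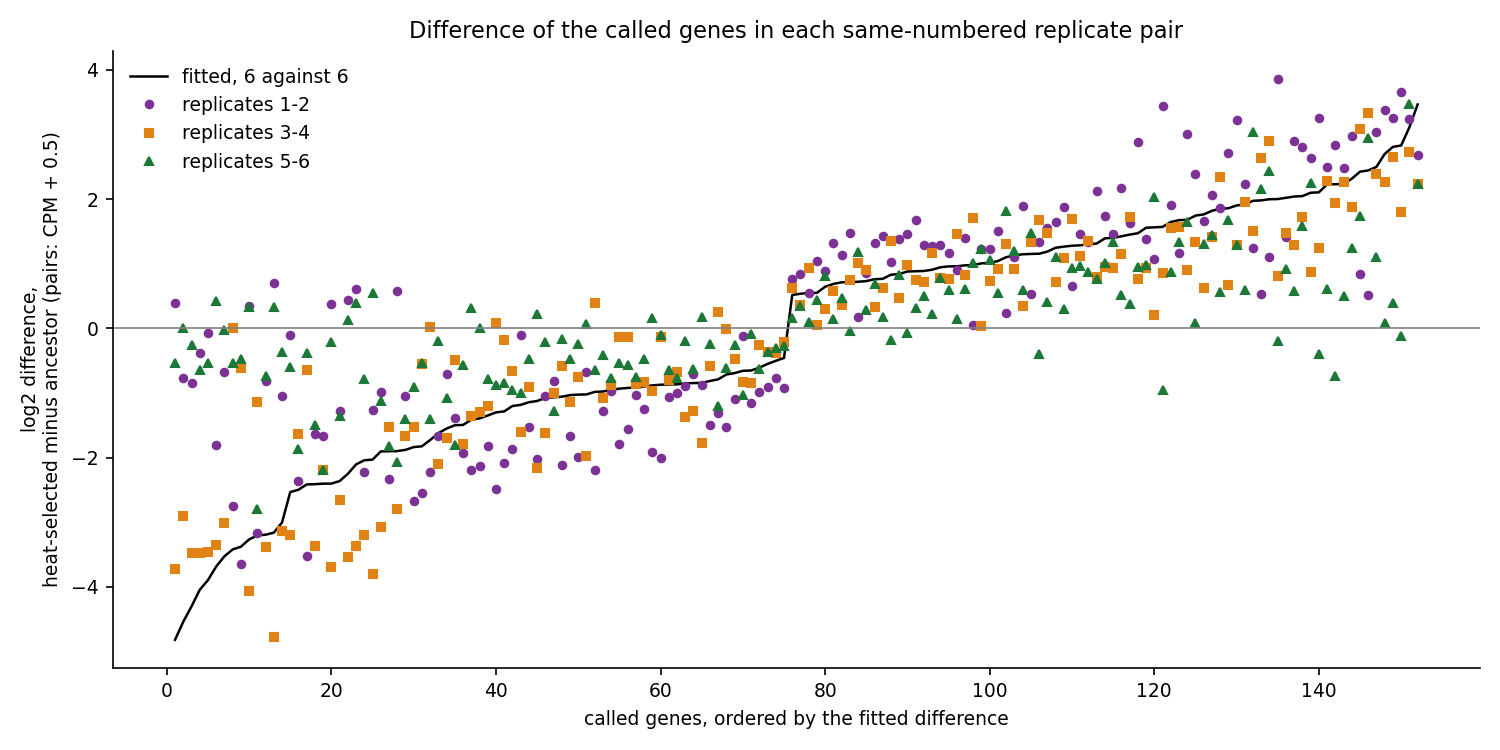
The log2 difference, heat-selected minus ancestor, of each of the 152 called genes in each same-numbered replicate pair (summed pairs, CPM plus 0.5), with genes ordered along the x axis by the fitted difference (line). Replicates 5-6 (triangles) lie nearest to 0, with medians of 0.77 and −0.54, and most of the lowest fitted differences, at the left, are carried by replicates 3-4 (squares).

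At the left end of the plot of pair differences most of the genes with the largest fitted decrease have 1 pair far from 0 and the others near it.

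In part of the lower genes 1 ancestor pair stood far above the other ancestor pairs. In 22 of the 75 lower genes the highest ancestor pair was at least 3 times the middle pair, and that pair was 3-4 in 16 genes and 1-2 in 6. Among the 77 higher genes the highest heat-selected pair was at least 3 times the middle one in 5. That pair was 1-2 in 4 genes and 3-4 in 1, CRE12908. The same share over all tested genes was not computed. Fits without a pair are given only for genes of the naming rule, so whether the other calls rest on that pair was not tested. Of these 22 lower genes 7 had no overlap between pairs, and of the other 53 lower genes 32 had none (2.41% of all tested genes). The grouping, the overlap and the call use the same pair values, so these counts describe the called genes and test nothing. The genes of this and the next paragraph lie outside the naming rule, unless named above, and were chosen after their values were seen.

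CRE23982, on scaffold 7, is the clearest case. Its ancestor libraries held 2.16 and 3.32, 129 and 153, and 4.75 and 6.14 CPM, while heat-selected libraries held 2.81 to 7.29 CPM. In ancestor replicates 1-2 and 5-6 the gene was lower than in heat-selected libraries of the same number, yet the fit over 6 against 6 gave −3.16 ± 0.68 (SE; adjusted p = 0.0104 by edgeR). CRE29938 (95.6 CPM in ancestor pair 3-4, 4.61 and 6.69 in the others), CRE05531 (63.3 against 3.75 and 4.54) and CRE05523 (30.3 against 0.751 and 0.680) had the same shape. In these 4 genes the fitted direction held in 1 of 3 same-numbered pairs only.

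Several such genes lie in the same or adjoining segments. CRE05517, CRE05523, CRE05531 and CRE05539 fall within 2 adjoining segments of scaffold 41, 7 to 34 places apart in the PX506 gene order, and were all high in ancestor replicates 3-4. CRE01311 and CRE01314, in segment 6 of linkage group 3, held 15.1 and 19.2, and 7.06 and 12.4 CPM in ancestor replicates 3 and 4 and at most 1.59 and 0.804 CPM in the other 10 libraries. CRE10368 had the largest fitted decrease of the 152 but drew 1 count over all heat-selected libraries and 66 in the ancestor, 64 of them in replicates 3 and 4. In 7 called genes 1 of the groups held 3 counts or fewer in all, and no fold is given for them.

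In heat-selected larvae 4 of the 5 matching genes had replicates 1-2 as their high pair. CRE26230 held 25.3 and 17.8 CPM there and 1.46 to 4.05 CPM in replicates 3 to 6, against 0.226 to 2.05 CPM in the ancestor. CRE24074 held 644 CPM in heat-selected pair 1-2, 213 in pair 3-4 and 36.7 in pair 5-6, and the ancestor pairs 67.3, 89.5 and 48.2 CPM. The last heat-selected pair was thus below all ancestor pairs, in a gene called higher. CRE_PX356_198, on linkage group 2, went from 79.6 to 16.9 to 5.33 CPM over its heat-selected pairs, against 3.14 to 7.21 CPM in the ancestor pairs.

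**Figure D4:**
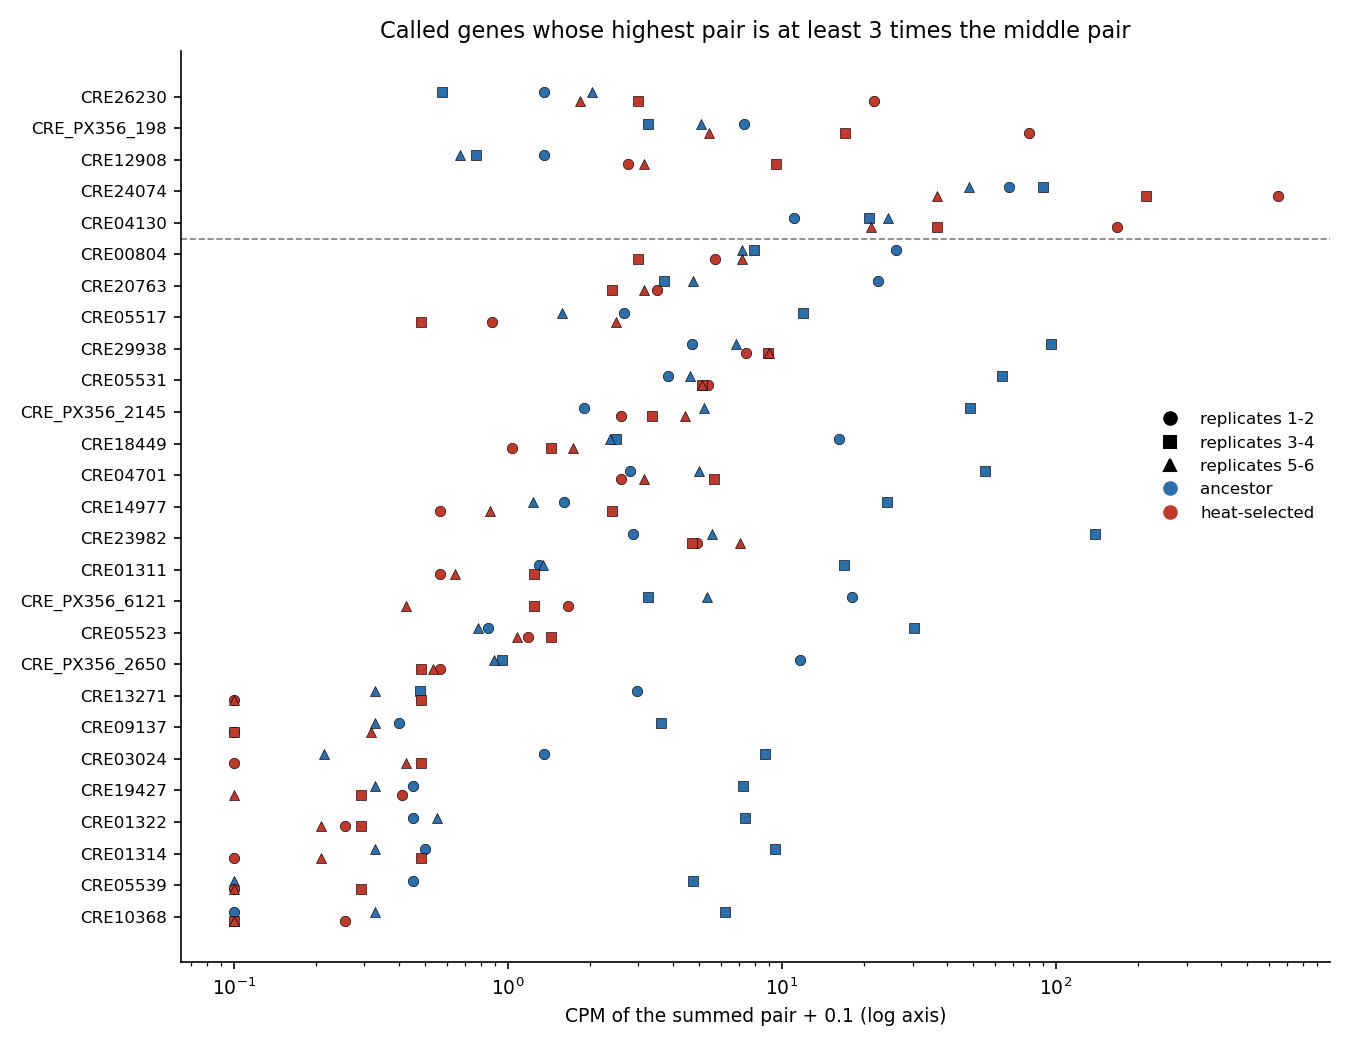
CPM (plus 0.1, log axis) of summed replicate pairs for the 22 genes called lower (under the dashed line) and the 5 called higher (above it) whose highest pair in the higher population is at least 3 times its middle pair. In 16 of the lower genes the ancestor pair 3-4 (blue squares) stands alone to the right, while the other 5 pairs lie together.

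The plot of genes with 1 high pair shows that the remaining ancestor pairs lay among the heat-selected pairs in most of these genes.

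Over the whole assembly, the genes above included, 23 pairs of called genes shared a segment, and in 20 of these pairs both went the same way. Counting the next segment too, there were 47 pairs with 33 in the same direction, which involved 62 genes. Whether called genes lie closer together than other tested genes was not tested, nor how often tested genes of a segment share a direction. On linkage group 5, CRE11247 (2.50 to 7.73 against 0.821 to 2.71 CPM), CRE11255 (31.3 to 149 against 22.6 to 47.5 CPM) and CRE06096 (44.8 to 62.9 against 17.5 to 41.4 CPM) were higher in heat-selected larvae. Only CRE06096 of these 3 had no overlap between its libraries. On linkage group 4, CRE11034 and CRE10841 were both lower (−1.90 ± 0.47 and −2.41 ± 0.52, SE; adjusted p = 0.0337 and 0.0123 by edgeR) and both highest in ancestor replicates 3-4. By location the called genes were like the rest: 46.7% lay on numbered linkage groups and 10.5% had no CRE number, against 47.2% and 11.8% of all tested genes.

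Larvae of the same populations at 20 °C entered the difference at 30 °C only through the shared filter, scaling and estimate of spread. The population difference at 20 °C was called in 106 genes (0.788% of those tested, 0.505% higher and 0.282% lower). Pairs summed gave 2, and leaving out heat-selected replicate 1, 3, 5 or 6 at 20 °C gave 184, 70, 67 and 65. Of the 152 genes, 132 (86.8%) had the same direction at 20 °C, as had 70.8% of all tested genes. At 20 °C 24 of the 152 were called in the same direction, 13 higher and 11 lower, and 0 in the opposite direction. CRE_PX356_452 was again apart, at 1.47 to 4.78 CPM (median 2.64) in heat-selected and 0.370 to 0.680 CPM (median 0.606) in ancestor larvae at 20 °C (difference 2.33 ± 0.41, SE; adjusted p = 0.000507 by edgeR). CRE25992 (2.05 ± 0.43), CRE16623 (2.05 ± 0.39) and CRE09800, at 8.21 to 30.4 against 2.35 to 9.60 CPM, were called too, and so was CRE25687 among the lower genes (−1.85 ± 0.45; adjusted p = 0.03 by edgeR). These genes thus differed between the populations at both larval temperatures. Reads outside genes made up 24.02 to 40.04% of heat-selected and 12.91 to 23.85% of ancestor libraries at 20 °C. This share therefore differed between the populations at 20 °C as well, and its part in the calls and shared directions was not tested.

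In 13 of the 152 genes the population difference at 30 °C itself differed from that at 20 °C, among 61 genes called for this contrast (0.453% of those tested, 0.126% with a difference more positive at 30 °C and 0.327% more negative). The 152 were chosen by the difference at 30 °C, which is part of this contrast. The 13 therefore describe the called genes and test nothing about them as a set. With pairs summed edgeR called 0, with 470 at an unadjusted p under 0.05, and without ancestor replicate 3 at 30 °C it called 36. CRE05046 was higher in heat-selected larvae at 30 °C (5.69 to 18.5 against 1.81 to 4.31 CPM). At 20 °C it stood at 1.59 to 20.7 CPM (median 4.30) in heat-selected and 9.18 to 17.2 CPM (median 15.3) in ancestor larvae. The difference of differences was 2.89 ± 0.37 (SE, log2; adjusted p = 7.35e-06 by edgeR). CRE21032 likewise stood at 33.1 to 64.7 against 17.7 to 26.2 CPM at 30 °C and at 91.4 to 291 against 221 to 335 CPM at 20 °C (1.99 ± 0.35; adjusted p = 0.00172). CRE12164 went the other way: it was higher in heat-selected larvae at 30 °C (485 to 700 against 248 to 333 CPM) and more so at 20 °C (1178 to 1482 against 224 to 388 CPM), a difference of −1.22 ± 0.24 (adjusted p = 0.00489). Of these 13 genes 4 were called with the replicate number as a block, CRE05046, CRE21032, CRE12164 and CRE27309. When the batch of ancestor libraries was read off the replicate number, 8 were called. CRE11034, CRE10841, CRE23982, CRE04701, CRE05531 and CRE29938 were among the 13 and were all highest in ancestor replicates 3-4 at 30 °C.

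The other libraries of larvae at 30 °C came from heated parents, 2 per population and all in batches A and E. Reads outside genes made up 41.1 and 9.73% of ancestor replicates 1 and 2 there, and 23.4 and 19.2% of the heat-selected ones. Counts in genes were 4192353 and 9478066 in the ancestor and 4324375 and 1986767 in heat-selected larvae. The part of these in the result was not tested. There 627 genes differed, 231 higher and 396 lower in heat-selected larvae (4.66% of those tested, 1.72% higher and 2.94% lower; edgeR). Scaled to total counts, 491 were higher and 194 lower. Without ancestor replicate 1 or 2 there were 217 and 402 calls, and without heat-selected replicate 1 or 2 there were 290 and 246. With pairs summed, which leaves 1 value per group, edgeR called 0 (unadjusted p under 0.05 in 1108). DESeq2 called 902 from the unsummed counts. Of the 152 genes 78 (51.3%) had the same direction as with unheated parents, against 58.8% of all tested genes. They were called in the same direction in 15 and in the opposite direction in 16 cases, and 13 of those 16 were genes higher in heat-selected larvae of unheated parents. CRE18212 held 33.7 to 72.6 CPM in heat-selected and 21.5 to 27.5 CPM in ancestor larvae of unheated parents. With heated parents it held 8.69 and 14.8 CPM in heat-selected and 44.5 and 65.8 CPM in ancestor larvae, a difference of −2.21 ± 0.32 (SE; adjusted p = 1.57e-05 by edgeR). CRE03747 (233 to 582 against 194 to 222 CPM with unheated parents, 97.0 and 127 against 525 and 576 with heated parents) and CRE16785 (37.9 to 103 against 20.0 to 44.9, then 14.4 and 19.2 against 114 and 120) changed sides in the same way. Whether the difference itself depended on the parental temperature was not tested here.

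Some genes kept their side with heated parents and others did not. CRE_PX356_452 stood at 2.90 and 6.19 CPM in heat-selected and 0 and 0.0931 CPM in ancestor larvae of heated parents. CRE_PX356_6121 stood at 0.362 and 0.442 CPM against 9.69 and 10.4 CPM, and CRE_PX356_6120 was at 0 in both heat-selected libraries and at 3.76 and 5.50 CPM in the ancestor. CRE25992 did not keep its side: its heat-selected libraries held 15.6 and 17.9 CPM and its ancestor libraries 25.7 and 26.3 CPM, a difference that was not called (adjusted p = 0.66 by edgeR). CRE16623 did not either, at 1.11 and 2.17 CPM in heat-selected and 6.20 and 8.47 CPM in ancestor larvae (adjusted p = 0.0725). CRE01098 (2.65 and 6.51 against 41.2 and 124 CPM) and CRE_PX356_198 (0 in both against 19.9 and 40.3 CPM) were higher in heat-selected larvae of unheated parents and were called lower with heated parents (adjusted p = 0.00768 and 0.00125 by edgeR). In all, 6 of the 152 genes were called in the same direction at 30 °C, at 20 °C and with heated parents: CRE_PX356_452, CRE_PX356_6175, CRE30855, CRE02474 and CRE06614 higher and CRE04789 lower. Singly, these 3 comparisons called 1.13%, 0.788% and 4.66% of tested genes. They share populations, batch letters and 1 estimate of spread, and how far their calls are independent was not tested. CRE06614 was a small and even difference, at 27.3 to 49.1 against 15.8 to 21.2 CPM with unheated parents at 30 °C, 22.3 to 38.6 (median 29.2) against at most 21.7 CPM (median 17.7) at 20 °C and 27.9 and 58.2 against 17.7 and 23.8 CPM with heated parents. CRE04789 mirrored it, at 75.5 to 121 against 122 to 174 CPM, then 61.2 to 83.2 against 83.1 to 126 CPM, then 74.8 and 74.9 against 132 and 154 CPM.

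**Figure D5:**
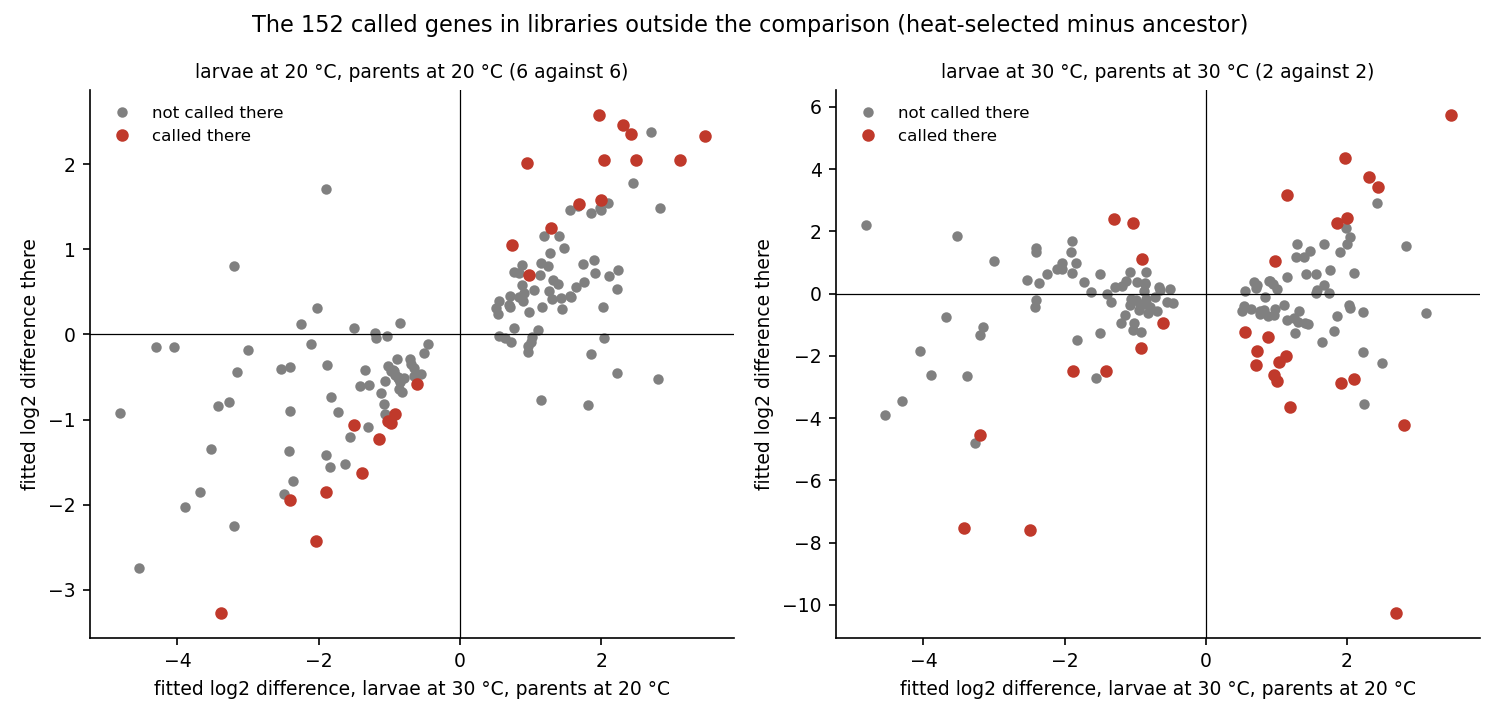
Fitted log2 differences, heat-selected minus ancestor, of the 152 called genes at 30 °C with unheated parents (x axis) against the same difference in larvae at 20 °C (left) and in larvae of heated parents (right), with genes called there in red. On the left the 24 red points lie in the quadrants of equal direction; on the right 15 do and 16 do not.

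The plot of the called genes in other libraries has the red points along 1 diagonal on the left and in all quadrants on the right. The comparisons use different libraries but share populations, the batch letters, the filter, the scaling and 1 estimate of spread.

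Control-selected larvae at 30 °C, labelled as derived from the same ancestor, are given for their levels alone, since any difference from the ancestor would use the same 6 ancestor libraries. CRE_PX356_452 held 0 to 1.47 CPM (median 0.800) there, CRE16623 2.77 to 7.26 CPM (median 4.07), CRE09800 2.77 to 6.22 CPM (median 4.99) and CRE_PX356_6175 0.604 to 2.33 CPM (median 1.55). In these 4 genes, picked after their values were seen, the control-selected range stayed below the heat-selected one and overlapped that of the ancestor. They do not stand for the named genes as a whole: in 17 of the 27 the control-selected mean was nearer to the heat-selected than to the ancestral mean on the log2 scale, and in 20 it lay between both. The 27 genes were chosen for large differences between the heat-selected and ancestor libraries. The same counts over all tested genes were not made, so these counts describe the named genes and test nothing. CRE17828 held 32.1 to 46.2 CPM (median 39.1) and CRE13568 5.61 to 10.3 CPM (median 8.29) in control-selected larvae, ranges that overlapped the heat-selected one and not the ancestral one. CRE25992 fell between, at 6.67 to 39.9 CPM (median 12.5), and CRE_PX356_6121 held 0 to 4.67 CPM (median 0.790).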

How the data were processed

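The authors deposited read counts for each gene model, 1 table a library. Per the submitters' processing notes they were made with GSNAP and HTSeq (version not given); the genome build and the use of strand are not given in the sources used here. Reads of overlapping models or near copies could not be resolved. The 24723 gene models were used without the 5 closing rows of reads outside the counts, and 13460 passed filterByExpr (minimum count 10). Of these, 10457 (77.7%) had a PX506 locus tag in RefSeq's gene table, which was used for names and gene order only. Linkage groups, scaffolds and segments are those of the deposited identifiers.

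One edgeR (4.0.16, R 4.3.3) quasi-likelihood fit with TMM scaling held 12 groups and all 48 libraries, with no term for batch, which is nested in population. The difference of differences between 30 and 20 °C had one. Adjusted p-values are Benjamini-Hochberg over all tested genes. The test was tried on simulated counts first. Errors of log2 differences are standard errors of the fit. Pairs are sums over consecutive replicates; their log2 differences use CPM plus 0.5. Likeness of libraries was the chi-square per gene with at least 20 reads. DESeq2 (1.42.0) and limma-voom (3.58.1) were alternatives.

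Same-numbered libraries of the populations deviated together: the correlations of deviations from the group means were 0.47, 0.40, 0.35, 0.25, 0.23 and 0.35 for replicates 1 to 6. Between unlike numbers of the same pair they were 0.16 to 0.46, so the likeness goes with the pair, not with the single number. The pairing comes from these correlations, not from the labels, and the fit with the replicate number as a block stands beside the count.

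Named genes were, among genes called at 30 °C whose log2 CPM averaged at least 1 over all libraries and with no overlap between pairs, the 12 largest in each direction with a locus tag and the 2 largest in each direction whatever their tag, 27 in all. The members and lists were chosen with earlier results of these data known. Planned protein classes, families, promoter motifs and stage markers could not be run without names or sequences.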

Additional observations from a re-analysis of the deposited data

Results flagged for a closer look

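Among 62 groups of 6 libraries checked for a library far from the others, 1 held such a library, which chance gives in about 1 in 20 groups. CRE31377 in ancestor larvae stood at 4.75 CPM in replicate 5, where the other libraries held 2.25 to 3.18 CPM. The gene was still higher in all heat-selected libraries (5.52 to 12.4 CPM).

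CRE05046 was the named gene whose population difference at 30 °C differed from that at 20 °C, by 2.89 on the log2 scale (adjusted p = 7.35e-06 by edgeR). It was called in the fits with the replicate number as a block (2.90, adjusted p = 0.00952), without a batch term (2.64, adjusted p = 0.0139) and with the batch of ancestor libraries read off the replicate number (2.84, adjusted p = 4.13e-06), but not with consecutive replicates summed (2.91, adjusted p = 0.187).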

How the results depend on the processing

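Results here are counts of called genes. For larvae at 30 °C (152), DESeq2's size factors, total counts, a minimum count of 50 and limma-voom gave 104 to 155, of which 149, 74, 124 and 79 were among the 152, and the block result stands in the report (34). The other counts were 97 without a filter, 302 with DESeq2, 2 against a fold threshold of 1 on the log2 scale, 10 with only the groups compared, 707 with both batches weighted equally and 0 with counts summed per batch (edgeR; 445 at an unadjusted p under 0.05). Single batches gave 14 (A and E) and 378 (B and F), and random blocks 1 (batch) and 7 (pair). Chosen after seeing the data were sums over pairs with a replicate block, which called 1 gene (CRE25992), replicates 1 and 2 alone (5443), replicates 3 to 6 alone (15) and omission of heat-selected replicates 1 to 4 (84). Pairs summed gave 1. Leaving out 1 library gave 53 to 225. Without a whole pair the counts were 200, 694 and 360 (ancestor pairs 1-2, 3-4 and 5-6) and 44, 147 and 577 (heat-selected pairs).

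For larvae at 20 °C (106) the counts were 194 with DESeq2, 15 against the fold threshold, 2 with pairs summed, 6 with a random batch block, 0 with counts summed per batch (edgeR; 318 unadjusted), 825 with batches weighted equally, 202 in batches B and F, 31 with only the groups compared, 176 with the replicate block, and 65 to 184 without 1 library. For heated parents (627) they were 75 against the fold threshold, 0 with pairs summed (edgeR; 1108 unadjusted) and 217 to 402 without 1 library. For the difference of differences (61) they were 106 with DESeq2, 4 against the fold threshold, 0 with pairs summed (edgeR; 470 unadjusted), 15 with the replicate block, 10 without a batch term, 31 with ancestor batches from the replicate number, and 36 to 80 without 1 library. The causes were not tested.

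Of the 27 named genes, 14 were called in every fit without 1 library and 8 in every fit without 1 pair. DESeq2 called 27, limma-voom 19, the replicate block 7 and pairs summed 0. No direction turned in any alternative run. The rule takes only genes whose pairs do not overlap, so this follows largely from the choice and tests nothing. Depth was lower in heat-selected libraries, and genes under 1 CPM rest on a handful of counts per library.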
